A study of Equus caballus with 8 samples.

Results

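The genes described are 10 components of the Wnt pathway that restrain it or report on its activity: the secreted antagonists DKK1, DKK3, SFRP1, SFRP2 and SFRP4, the intracellular inhibitors NKD1, NKD2 and AXIN2, the transcription factor LEF1 and the R-spondin receptor LGR5. They were taken from a list of symbols and matched to horse NCBI Gene IDs through a RefSeq gene table. All 10 have a row among the 24942 Gene IDs of the count table, and 9 passed the filter on low counts that left 15342 genes to test. The exception was LGR5, with 4 to 12 reads per library.

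The libraries are poly(A) RNA of uterine lining (endometrium) from Bavarian Warmblood mares, taken by transcervical biopsy after the uterus had been flushed. The pregnant group holds 4 libraries from Day 12 of pregnancy, with an embryonic vesicle seen by ultrasound before flushing, and the cyclic group holds 4 libraries from Day 12 of the oestrous cycle. The same 4 mares gave both, 1 biopsy in each state, so each comparison is within a mare. Each pair was sampled in random order. Mares received 1500 IU of human chorionic gonadotropin to induce ovulation, and per the labels' protocols all were inseminated with semen of 1 stallion. Library totals were 9812053 to 16703347 reads in the pregnant group and 15485568 to 16517589 reads in the cyclic group, and the pregnant library of mare 1 was the shallowest. Markers of both main tissue layers were present, with the epithelial adhesion molecule EPCAM at a mean of 508 CPM (read counts scaled to a common library size, with TMM factors between libraries) in pregnancy and 538 CPM in the cycle, and the stromal proteoglycan DCN at 189 and 139 CPM.

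Wnt ligands are secreted lipid-modified proteins that bind Frizzled receptors and the co-receptors LRP5 and LRP6. Binding stops the breakdown of β-catenin, which then enters the nucleus and switches on target genes together with TCF and LEF factors. Secreted antagonists act outside the cell on the ligand or the co-receptor, whereas AXIN2, NKD1 and LEF1 are themselves target genes, and AXIN2 and NKD1 feed back to dampen the signal. In the mouse uterus the pathway takes part in gland formation and in implantation. Gene roles below are known mainly from human, mouse and frog work, and are given as background.

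Of the secreted antagonists, DKK3 and SFRP1 rose in pregnancy, DKK1 and SFRP4 were higher in every mare without passing the test, and SFRP2 was near the detection limit in both states. Of the genes that report on or feed back to the pathway inside the cell, LEF1 and NKD1 fell, AXIN2 did not pass the test, and NKD2 rose. In all, 5 of the 9 tested genes passed an adjusted p of 0.05, 3 higher and 2 lower, beside 16.7% of all genes tested in either direction, 8.53% higher and 8.19% lower. The same 5 genes had pregnant and cyclic values that did not overlap, beside 10.7% of all genes tested. The list was drawn up with results of these data known, so these shares describe it and are no test of it.

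SFRP1 (Gene ID 100055845) encodes a secreted protein whose cysteine-rich domain resembles that of Frizzled receptors and binds Wnt ligands. It had 71.7, 69.9, 59.1 and 66.2 CPM in the pregnant libraries of mares 1 to 4, against 31.6, 33.6, 27.6 and 50.1 CPM in the cyclic libraries of the same mares. Every pregnant value lay above every cyclic one, and the ratio within a mare was 2.08 to 2.27 in mares 1 to 3 and 1.32 in mare 4, whose cyclic value was the highest. The log2 fold change was 0.93 ± 0.13 (SE; edgeR quasi-likelihood test, adjusted p = 0.00346, n = 4 mares), a 1.91-fold rise.

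DKK3 (100055937) is a divergent member of the Dickkopf family that, unlike DKK1, is not known as a ligand of LRP6. It had 47.4, 37.2, 53.8 and 43.8 CPM in the pregnant libraries of mares 1 to 4, against 23.0, 18.1, 33.0 and 25.7 CPM in the cyclic ones. The groups did not overlap, and the order of the mares was nearly the same in both states, with mare 3 highest and mare 2 lowest. The rise was even across mares, with ratios of 1.63 to 2.06, and the log2 fold change was 0.89 ± 0.09 (SE; edgeR adjusted p = 5.03e-04). SFRP1 and DKK3 were the only listed genes that passed in each of the 15 alternative settings.

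DKK1 (100071881) blocks Wnt signalling by binding LRP5 and LRP6. It had 24.3, 62.0, 25.9 and 42.2 CPM in the pregnant libraries of mares 1 to 4, against 17.8, 35.4, 23.3 and 14.7 CPM in the cyclic ones. The groups overlapped, and the size of the difference varied widely between mares, from a ratio of 1.11 in mare 3 to one of 2.86 in mare 4. The log2 fold change was 0.73 ± 0.23 (SE; adjusted p = 0.0930). The result was close to the threshold and depended on the test: DKK1 passed in 7 of 15 alternatives, among them DESeq2, limma-voom and the fits without mare 3 (adjusted p = 0.0434) and without mare 4 (log2 fold change 0.48; adjusted p = 0.0485), with adjusted p from 0.00361 to 0.319 in all.

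SFRP4 (100051069) and SFRP2 (100069959) belong to the same family of Frizzled-related proteins as SFRP1, and both had few reads. SFRP4 had 32, 18, 33 and 24 reads in the pregnant libraries of mares 1 to 4, against 18, 7, 26 and 21 reads in the cyclic ones. After scaling this is 3.18, 1.16, 1.86 and 1.42 CPM in pregnancy, against 1.16, 0.440, 1.61 and 1.30 CPM in the cycle. SFRP4 was higher in 4 of 4 mares, with ratios of 2.74 and 2.64 in mares 1 and 2 but 1.15 and 1.09 in mares 3 and 4 (log2 fold change 0.72 ± 0.31, SE; adjusted p = 0.148). Without mare 1 the log2 fold change of SFRP4 was 0.46 (adjusted p = 0.477). SFRP2 had 4, 10, 11 and 11 reads in pregnancy, against 6, 12, 9 and 15 in the cycle. It was higher in 2 mares and lower in 2, and its log2 fold change was -0.17 ± 0.33 (SE; edgeR adjusted p = 0.771). At this depth no difference was detectable. A count of 0 allows up to 3 reads, which is 0.169 to 0.298 CPM per library, and such limits cover counting error only. The SFRP4 locus overlaps a pseudogene, LOC102147660, in the RefSeq table, so its reads could be divided between the pair.

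**Figure D1:**
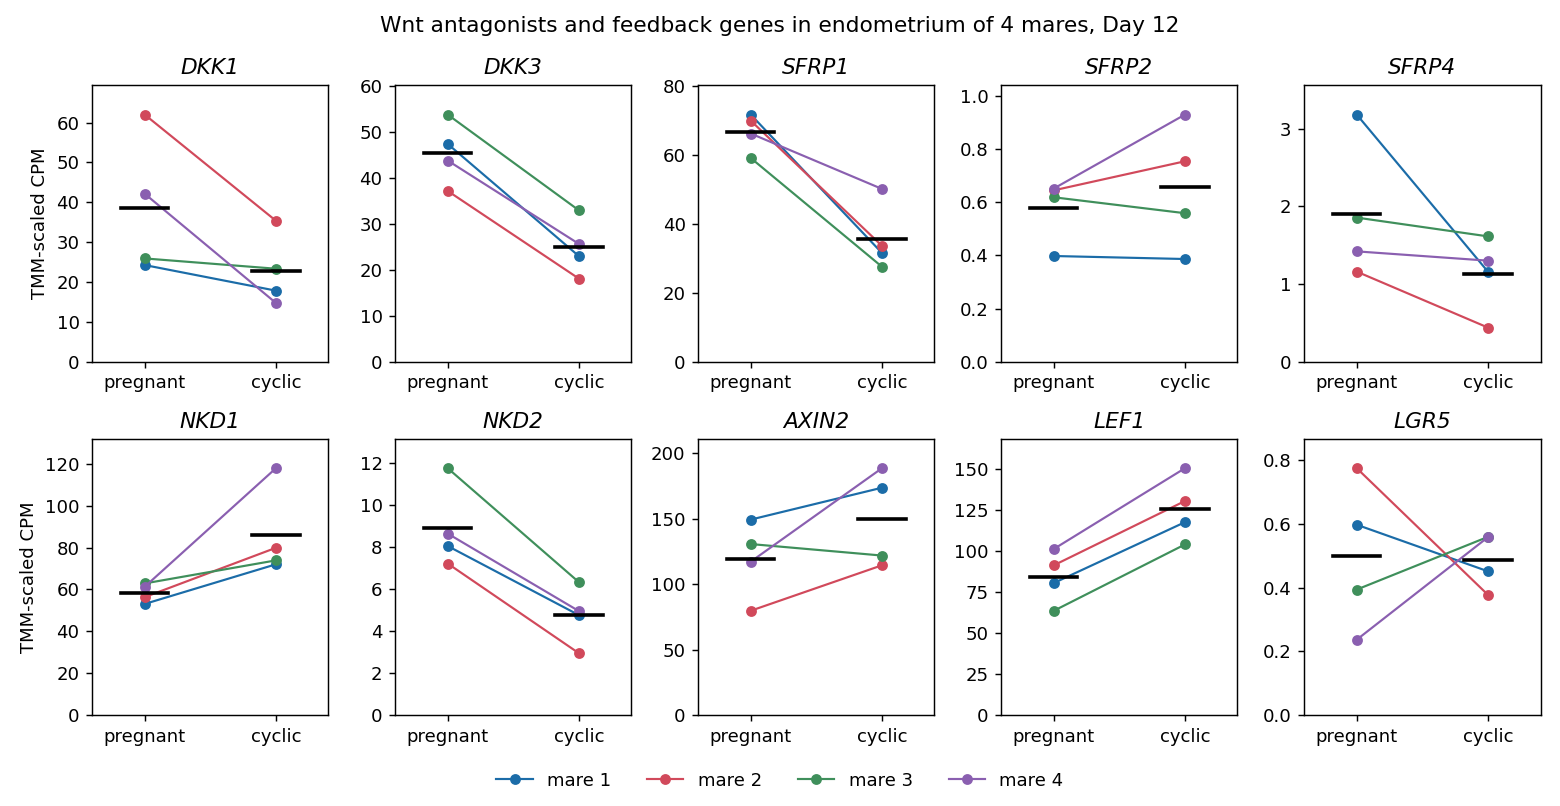
TMM-scaled CPM (vertical axes, from 0) of the 10 genes in pregnant and cyclic endometrium. Each point is 1 library, lines join the libraries of a mare, and black bars are group means (n = 4). In DKK3, SFRP1 and NKD2 every pregnant value lies above every cyclic one, and in LEF1 and NKD1 every pregnant value lies below.

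A biopsy holds several cell types, and in such bulk RNA more cells of a type and more RNA per cell cannot be told apart. The marker counts below stand beside 16.7% of all genes tested that passed in either direction, 8.53% higher and 8.19% lower. Endothelial markers rose in 7 of 8 tested, and their summed level was 708 to 1202 CPM in pregnancy, against 397 to 557 CPM in the cycle. Smooth muscle and pericyte markers rose in 5 of 8, with sums of 469 to 736 CPM in pregnancy and 264 to 483 CPM in the cycle. Stromal markers rose in 3 of 8 (DCN, VIM and DPT, each higher in 4 of 4 mares). The stromal sums overlapped, at 4089.7 to 4524 CPM in pregnancy and 3303 to 4962 CPM in the cycle. Most of the stromal sum came from 2 collagens, COL1A1 (means of 1283 CPM in pregnancy and 1484 CPM in the cycle) and COL1A2 (1351 and 1558 CPM). Neither collagen passed, and each was higher in 2 mares and lower in 2. Of 8 epithelial markers 2 passed, both lower (KRT7 and KRT18), with sums of 1648 to 1880.4 CPM in pregnancy and 1825 to 2242 CPM in the cycle. Sums of ciliated cell, macrophage, and T and NK cell markers were 124 to 223, 128 to 147 and 41.2 to 53.6 CPM in pregnancy, against 87.3 to 231, 97.8 to 156 and 29.5 to 45.0 CPM in the cycle, with 1 of 4, 1 of 6 and 2 of 7 markers passing, each higher. Sums of gland markers were 615 to 941 CPM in pregnancy, against 749 to 1119 CPM in the cycle, and those of cycling cells 1.69 to 3.26 CPM, against 2.30 to 6.12 CPM. The fewest reads of a tested endothelial, smooth muscle, stromal or epithelial marker in a library were 15.

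Within mares, the ratio of SFRP1 was smallest in mare 4, at 1.32, and so were the ratios of the endothelial sum (1.37 in mare 4, 1.78 to 2.16 in the others) and of the smooth muscle and pericyte sum (1.21 in mare 4, 1.77 to 2.48 in the others). SFRP4 (1.09), NKD1 (0.520), AXIN2 (0.622) and the stromal sum (0.828) also had their smallest ratio in mare 4. For NKD1 and AXIN2, lower in pregnancy in that mare, the smallest ratio is the largest change. From the largest ratio to the smallest, the mares ran 1, 3, 2 and 4 in SFRP1 and the endothelial and stromal sums. They ran 3, 1, 2 and 4 in the smooth muscle and pericyte sum, NKD1 and AXIN2, and 1, 2, 3 and 4 in SFRP4. DKK3 did not have its smallest ratio in mare 4, since that ratio, 1.63, was in mare 3. Nor did DKK1 and LEF1, with the smallest ratio in mare 3, NKD2 (mare 1) or the epithelial sum (mare 2). The part of these cell types in the changes was not tested.

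**Figure D2:**
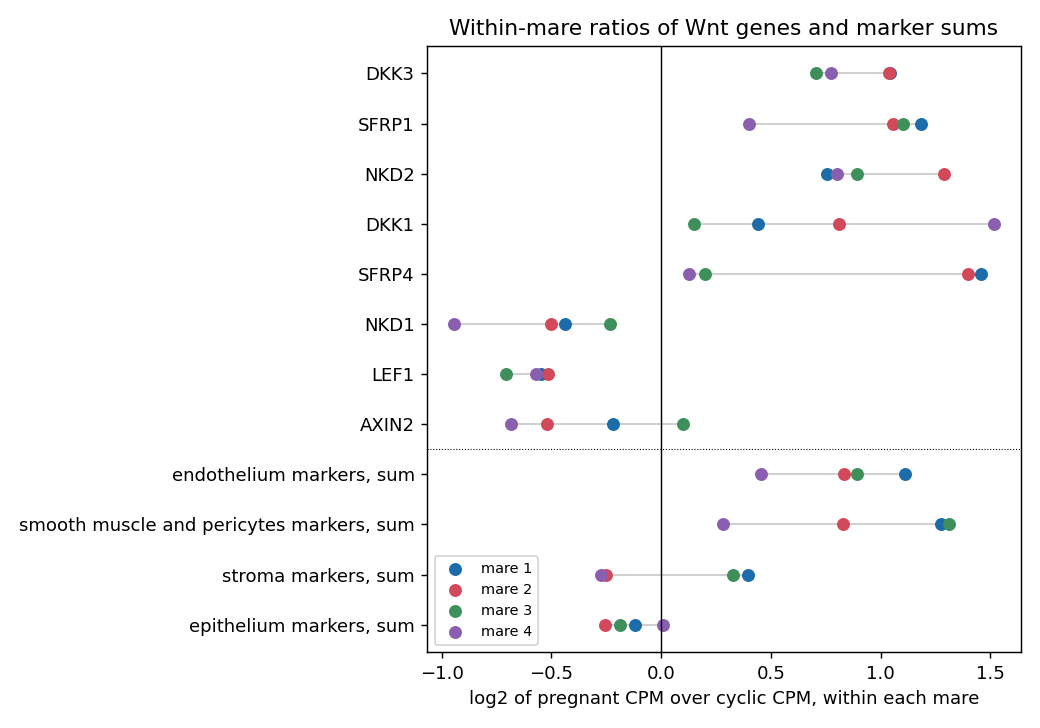
Log2 of the pregnant over the cyclic CPM within each mare (horizontal axis), for 8 of the genes above the dotted line and for the summed CPM of 4 marker lists below it. Each point is 1 mare. The points of SFRP1, SFRP4, NKD1, AXIN2 and of the endothelial, smooth muscle and stromal sums are each lowest in mare 4. Of the 8 genes the points of LEF1 lie closest together.

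LEF1 (100072938), a DNA-binding partner of β-catenin and a target of the pathway, fell. It had 80.4, 91.2, 63.5 and 101 CPM in the pregnant libraries of mares 1 to 4, against 117, 130, 104 and 150 CPM in the cyclic ones. The mares kept the same order in both states, with mare 4 highest and mare 3 lowest, and the highest pregnant value was below the lowest cyclic one. The within-mare ratio varied little, from 0.612 to 0.700, and the log2 fold change was -0.59 ± 0.06 (SE; adjusted p = 7.52e-04).

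NKD1 (100059048) encodes a protein that binds Dishevelled and is induced by Wnt signalling. It fell, with 53.1, 56.3, 62.9 and 61.3 CPM in the pregnant libraries of mares 1 to 4, against 72.0, 79.9, 73.9 and 118 CPM in the cyclic ones. The pregnant values were close together and all below the cyclic ones, among which mare 4 stood highest. The log2 fold change was -0.53 ± 0.11 (SE; adjusted p = 0.0121). Without mare 4 it was -0.39 (adjusted p = 0.0186), and the call was lost without mare 2 (adjusted p = 0.0512). Over its alternatives the adjusted p ran from 5.02e-04 to 0.0919.

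AXIN2 (100630049), the inducible scaffold of the β-catenin destruction complex and a widely used readout of the pathway, did not pass the test. It had 149, 79.8, 131 and 117 CPM in the pregnant libraries of mares 1 to 4, against 174, 114, 122 and 189 CPM in the cyclic ones. AXIN2 was lower in 3 of 4 mares and higher in mare 3, where the ratio was 1.07, and the groups overlapped (log2 fold change -0.33 ± 0.12, SE; adjusted p = 0.114). Without mare 4 the log2 fold change was -0.21 (adjusted p = 0.290). Without mare 3 it was -0.48 and AXIN2 passed (adjusted p = 0.0186), the only one of 15 alternatives in which it did (adjusted p 0.0186 to 0.487).

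NKD2 (100057994), the paralogue of NKD1 and likewise a Dishevelled-binding inhibitor, rose. It had 8.05, 7.22, 11.8 and 8.64 CPM in the pregnant libraries of mares 1 to 4, against 4.77, 2.95, 6.33 and 4.96 CPM in the cyclic ones. The groups did not overlap, and the mare order was the same in both states, with mare 3 highest and mare 2 lowest. The log2 fold change was 0.93 ± 0.14 (SE; adjusted p = 0.00312), a 1.90-fold rise in the opposite direction to NKD1. In the RefSeq table each NKD gene overlaps a long noncoding RNA gene that has no row in the count table, and the kit as described does not mark the strand.

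LGR5 (100064565), a receptor of R-spondins known as a marker of epithelial stem cells, was at the edge of detection. It had 6, 12, 7 and 4 reads in the pregnant libraries of mares 1 to 4, against 7, 6, 9 and 9 reads in the cyclic ones. It was higher in 2 mares and lower in the other 2. With no filter on low counts its log2 fold change was -0.04 (adjusted p = 0.983), and no difference was detectable at this depth.

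Of the 5 changed genes, LEF1, NKD1 and NKD2 passed only with the mare as a block, which the design calls for. Without the block their adjusted p was 0.0842, 0.0919 and 0.0810, and 2 of the listed genes were called, DKK3 and SFRP1. The range over the alternatives was 4.48e-10 to 0.0842 for LEF1 and 1.33e-06 to 0.0810 for NKD2.

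The relation between paralogues or partners was followed by read ratios within each library, which need no scaling. Per 100 reads of NKD1 there were 15.2, 12.8, 18.7 and 14.1 reads of NKD2 in the pregnant libraries of mares 1 to 4, against 6.62, 3.70, 8.57 and 4.21 in the cyclic ones. The ratio was higher in pregnancy in 4 of 4 mares, with a mean difference of 1.46 ± 0.35 on the log2 scale (SD, n = 4). NKD2 was higher and NKD1 lower in every mare, so the direction of this ratio was already set by those results. A two-sided exact permutation test could then give only p = 0.125, the smallest p that 4 mares allow (adjusted p = 0.375 over 3 such ratios). It adds nothing to the results of the 2 genes. Per 100 reads of AXIN2 there were 53.9, 114, 48.6 and 86.3 reads of LEF1 in pregnancy, against 67.6, 114, 85.2 and 79.7 in the cycle. That ratio was lower in 2 mares and higher in 2 (mean log2 difference -0.25 ± 0.42, SD, n = 4; exact permutation p = 0.50). Per 100 reads of DKK1 there were 195, 60.0, 208 and 104 reads of DKK3 in pregnancy, against 129, 51.2, 141 and 174 in the cycle. The ratio was higher in 3 of 4 mares and lower in mare 4 (mean log2 difference 0.16 ± 0.62, SD, n = 4; exact permutation p = 0.625).

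How far the genes differed between mares, whatever the state, was tested through the mare terms of that fit. Of the 9 tested genes 2 differed between mares, beside 15.9% of all genes tested: LEF1 (adjusted p = 0.0120) and DKK3 (adjusted p = 0.0247). NKD2 (adjusted p = 0.0654) and AXIN2 (adjusted p = 0.0686) were next. When the variation in log2 CPM was divided as sums of squares, the state took 79.2% of it in SFRP1 and 74.8% in DKK3, but 20.6% in AXIN2, where the mare took 62.4%. In DKK1 the mare took 50.2% and the state 33.5%. The medians over all genes tested were 15.97% for the state and 54.8% for the mare. The mare has 3 degrees of freedom and the state 1, so a larger share for the mare arises even where mares do not differ. In SFRP2 the mare took 85.7%, though its mare terms did not pass (edgeR adjusted p = 0.433). In LEF1 the remainder that neither explains was 1.01%, the smallest among the 9.

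**Figure D3:**
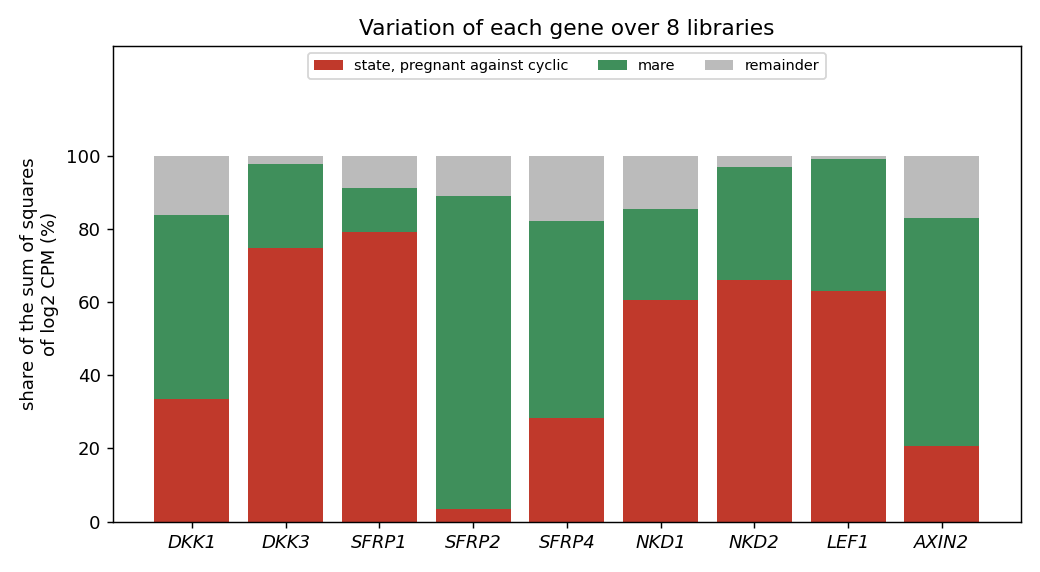
Share of the variation in log2 CPM (sums of squares, %) of each tested gene that goes with the state (red, 1 degree of freedom), the mare (green, 3) and the remainder (grey, 3), over 8 libraries. The state takes the largest part in DKK3, SFRP1, NKD1, NKD2 and LEF1, and the mare in DKK1, SFRP2, SFRP4 and AXIN2.

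The other genes of the pathway were followed in 7 role groups. Of 90 listed, 85 have a row in the count table and 67 were tested, of which 9 rose and 8 fell, beside 8.53% of all genes tested that rose and 8.19% that fell. Their median log2 fold change was -0.04, beside 0.0042 over all genes tested. FZD1, FZD8, TLE1, SP5 and WNT10A matched no row and were not analysed here. Without mare 1 the count was 9 (5 higher, 4 lower), and without the mare block it was 4, all higher: DKK2, APCDD1, CD44 and WNT7B.

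Among 9 further tested antagonists, 3 rose and 1 fell, beside 8.53% of all genes tested that rose and 8.19% that fell. DKK2, a Dickkopf protein that binds LRP6, rose to 1.92 ± 0.821 CPM in pregnancy, against 0.611 ± 0.0697 CPM in the cycle (log2 fold change 1.60 ± 0.30, SE; adjusted p = 0.00643). FRZB, a further Frizzled-related protein, had 31.3 ± 1.73 CPM in pregnancy and 22.3 ± 3.10 CPM in the cycle, and rose (log2 fold change 0.50 ± 0.09, SE; adjusted p = 0.00642). APCDD1, a membrane glycoprotein that binds Wnt and LRP5, rose to 47.6 ± 11.8 CPM in pregnancy, against 25.1 ± 1.87 CPM in the cycle (adjusted p = 9.41e-04). The pregnant and cyclic values of these 3 did not overlap, but DKK2 had only 8 to 47 reads per library.

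NOTUM, a secreted enzyme that removes the lipid from Wnt ligands and is itself a target of the pathway, fell, with 128 ± 29.8 CPM in pregnancy and 166 ± 49.9 CPM in the cycle (log2 fold change -0.36 ± 0.10, SE; adjusted p = 0.0338). Its call was lost in 7 of 15 alternatives (adjusted p 0.0107 to 0.434). KREMEN1, a co-receptor of Dickkopf proteins, had 431 ± 70.0 CPM in pregnancy and 495 ± 51.4 CPM in the cycle (adjusted p = 0.122).

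Genes of receptor turnover included RNF43 and ZNRF3, ubiquitin ligases that remove Frizzled from the cell surface and are feedback targets of the pathway. Both fell: RNF43 had 96.6 ± 10.7 CPM in pregnancy and 129 ± 27.1 CPM in the cycle (log2 fold change -0.40 ± 0.08, SE; adjusted p = 0.0119), and ZNRF3 had 35.2 ± 7.06 and 47.5 ± 6.84 CPM (-0.44 ± 0.08; adjusted p = 0.00688). Each was lower in 4 of 4 mares. These were 2 of the 4 genes tested in this group, beside 16.7% of all genes tested that passed. LGR4, an R-spondin receptor related to LGR5, had 312 ± 22.9 CPM in pregnancy and 354 ± 18.9 CPM in the cycle (adjusted p = 0.162). Without mare 1 the call of RNF43 was lost (adjusted p 0.00226 to 0.174 over its alternatives).

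Of 13 tested receptors 2 passed, both lower, a share near the 16.7% of all genes tested. The co-receptor LRP6 had 18.1 ± 8.66 CPM in pregnancy and 28.2 ± 10.5 CPM in the cycle, and was lower in 4 of 4 mares (log2 fold change -0.67 ± 0.14, SE; adjusted p = 0.0153). FZD2 had 46.0 ± 10.5 and 58.2 ± 12.1 CPM (adjusted p = 0.00964), a call lost without mare 1 (adjusted p 0.00280 to 0.392 over its alternatives). The co-receptor LRP5 had 484 ± 57.9 CPM in pregnancy and 497 ± 10.3 CPM in the cycle (adjusted p = 0.785), and FZD5 had 67.4 ± 18.8 and 78.4 ± 14.7 CPM (adjusted p = 0.356). Without mare 4 FZD5 passed, lower (adjusted p = 0.0272; 0.0272 to 0.675 over its alternatives).

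Of 14 tested genes of signal transduction 2 passed, both lower, again a share near the 16.7% of all genes tested. PYGO1, a nuclear cofactor of β-catenin, had 16.4 ± 7.32 CPM in pregnancy and 30.5 ± 8.76 CPM in the cycle (log2 fold change -0.95 ± 0.11, SE; adjusted p = 9.82e-04). APC, a scaffold of the destruction complex, had 36.1 ± 7.41 and 50.0 ± 12.6 CPM (adjusted p = 0.00742), a call lost without mare 1 (adjusted p 6.22e-04 to 0.238 over its alternatives). The gene of β-catenin, CTNNB1, had 410.2 ± 28.3 CPM in pregnancy and 404 ± 25.8 CPM in the cycle (adjusted p = 0.896), and the kinase gene CSNK1A1 had 197 ± 15.8 and 213 ± 18.6 CPM (adjusted p = 0.332). The transcript level of β-catenin does not report its protein level, which is set by breakdown.

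Of 6 tested TCF factors and Groucho corepressors, TLE2 fell and TLE3 rose, beside 16.7% of all genes tested that passed in either direction. TLE2 had 82.8 ± 15.3 CPM in pregnancy and 124 ± 19.7 CPM in the cycle (log2 fold change -0.58 ± 0.07, SE; adjusted p = 8.97e-04), and its groups did not overlap. TLE3 had 37.4 ± 11.2 and 27.8 ± 6.44 CPM (adjusted p = 0.0110), a call lost without mare 1 and without mare 3 (adjusted p 0.00346 to 0.397 over its alternatives). TLE4 had 39.0 ± 4.43 and 35.1 ± 4.14 CPM (adjusted p = 0.278).

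The targets NOTUM, RNF43 and ZNRF3, given above, fell as LEF1 and NKD1 did. The target AXIN2 did not pass (edgeR adjusted p = 0.114), and the inhibitors NKD2 and APCDD1 rose. In a separate list of other genes often named as targets, those that passed were higher in pregnancy, beside 8.53% of all genes tested that rose. Of 10 tested, 3 passed, all higher: the hyaluronan receptor CD44, with 75.4 ± 12.3 CPM in pregnancy and 40.9 ± 8.83 CPM in the cycle (adjusted p = 0.0383), the Notch ligand JAG1, with 37.8 ± 6.74 and 24.5 ± 3.18 CPM (adjusted p = 0.00227), and the growth factor BMP4, with 19.7 ± 2.94 and 15.2 ± 2.93 CPM (adjusted p = 0.0281). The calls of CD44 and BMP4 were lost in 4 and 5 of 15 alternatives (adjusted p 1.02e-05 to 0.174 and 0.0216 to 0.261), both of them without mare 1. EPHB3, a receptor kinase, had 106 ± 13.6 and 105 ± 15.4 CPM (adjusted p = 0.868). These genes also respond to other pathways.

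Among 11 tested ligands 2 passed, both higher, beside 16.7% of all genes tested in either direction and 8.53% higher. WNT7B had 13.3 to 60.3 CPM in pregnancy and 0.310 to 0.966 CPM in the cycle (log2 fold change 5.85 ± 0.14, SE, edgeR adjusted p = 1.07e-07). WNT6 had 3.86 ± 1.69 and 2.26 ± 0.793 CPM (adjusted p = 0.0431). The WNT6 call was lost in 7 of 15 alternatives (adjusted p 0.0132 to 0.311). WNT2B and WNT5A, which did not pass, had 32.4 ± 11.5 and 28.5 ± 6.69 CPM in pregnancy, against 44.7 ± 2.11 and 36.0 ± 9.22 CPM in the cycle (adjusted p = 0.317 and adjusted p = 0.351).

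**Figure D4:**
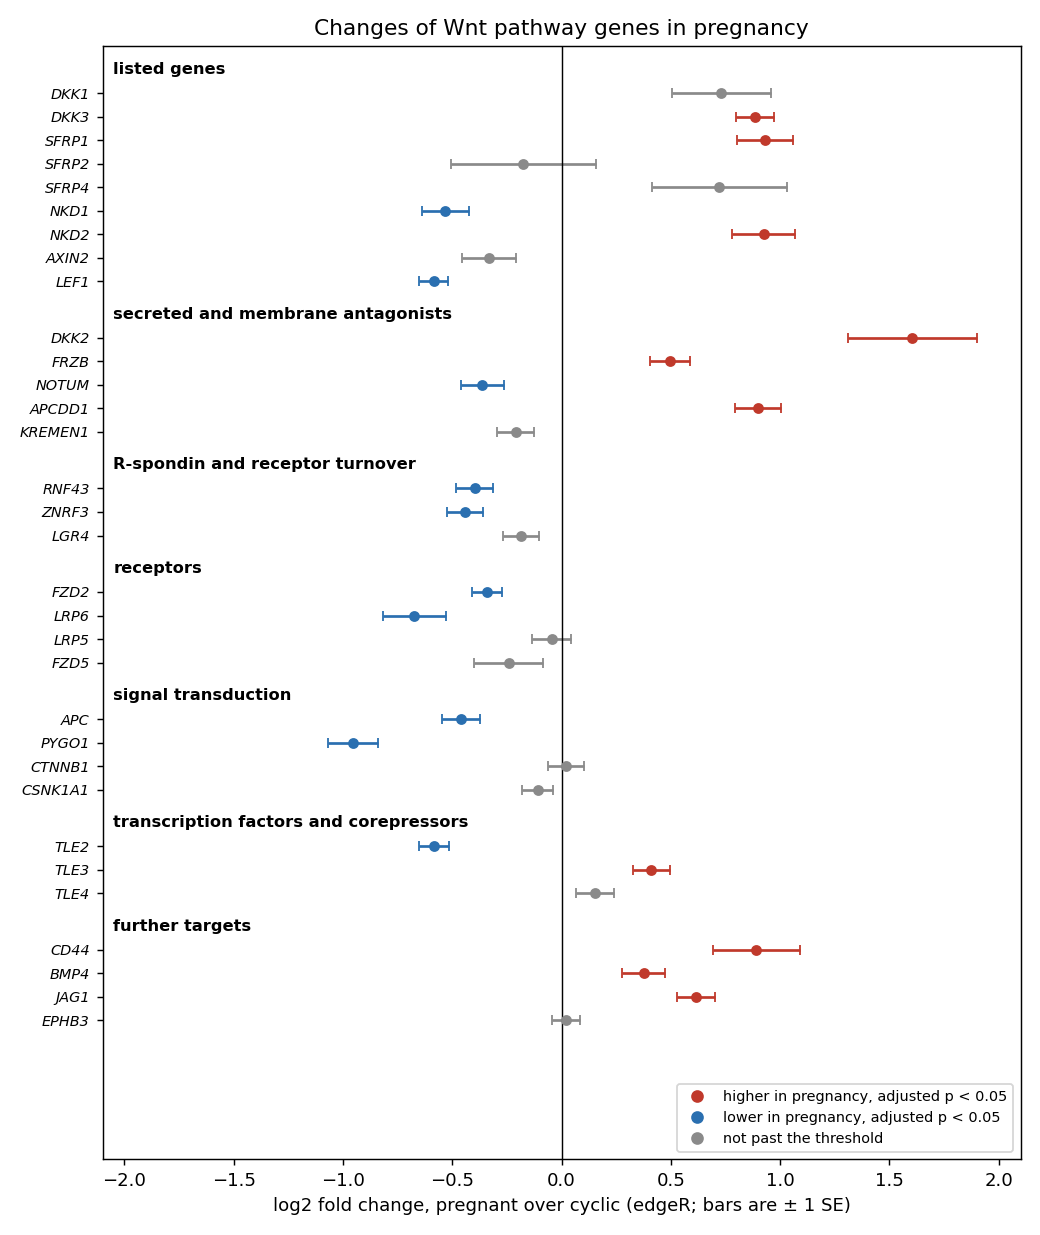
Log2 fold change of pregnant over cyclic endometrium (horizontal axis) with ± 1 SE for the 9 tested listed genes and for the other named pathway genes by role, without the ligands. Red points rose and blue points fell at an adjusted p under 0.05, and grey points did not pass. Red, to the right of 0, are SFRP1, DKK3, NKD2, DKK2, FRZB, APCDD1, TLE3, CD44, JAG1 and BMP4. Blue, to the left, are LEF1, NKD1, NOTUM, RNF43, ZNRF3, FZD2, LRP6, APC, PYGO1 and TLE2.

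For each changed gene the 3 transcripts with the most similar profile were found, by the Pearson correlation of log2 CPM over the 8 libraries among genes with a symbol and a mean of at least 5 CPM. The libraries share mares and the highest of many correlations is high by construction, so these values are a description. SFRP1 was followed most closely by RGS5, a gene of pericytes (0.985), SPRED2 (0.967) and MMRN1, a gene of endothelium and platelets (0.963). DKK3 was followed by the transcription factor KLF5 (0.984), UNC93A (0.981) and MFNG, a modifier of Notch receptors (0.980). LEF1 was followed by the endothelin receptor EDNRB (0.991), MAPK1IP1L (0.989) and FNBP1L (0.983). NKD1 was followed by ABRACL (0.988), LYPLA1 (0.975) and CDK2 (0.959), and NKD2 by ASAP3 (0.986), SLC25A36 (0.985) and INPP5K (0.983).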

How the data were processed

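The authors deposited raw read counts per Gene ID for 8 libraries and a second table of scaled signal values for 14037 genes, which equal TMM-scaled CPM within a relative tolerance of 1e-06 (100% of values). Per the submitters' processing notes, the tools included HISAT2 2.0.3 and Trimmomatic 0.32.2; for build, annotation and counting tool the entry is "not given in the sources used here". Of the Gene IDs 21420 (85.9%) matched the RefSeq table of a horse assembly, used for names and for which genes overlap.

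Counts were fitted in R 4.3.3 with edgeR 4.0.16 (filterByExpr, minimum count 10; TMM; robust quasi-likelihood F-test with the mare as a block; Benjamini-Hochberg over 15342 genes). An adjusted p below 0.05 is a call, SE is the log2 fold change over the square root of F, and log2 CPM has a prior count of 2. Both samples of a pair come from 1 mare, by the design text and the titles. Same-mare deviations from the group means correlated at 0.377 to 0.536 across genes, against at most -0.015 between mares. Taking deviations from group means pushes the between-mare values down when the same-mare ones are positive, so this gap is partly built in. No 2 libraries of a group agreed within counting noise (lowest chi-square per degree of freedom 24.6). Alternatives used DESeq2 1.42.0 and limma 3.58.1, limma also with a pseudocount of 0.5 on the second table. The fit was tested on simulated data. Named are all listed genes, called pathway genes plus up to 2 others of highest CPM per role, and the 3 nearest profiles per changed gene. The genes and lists were chosen with earlier results of these data known. The files hold no sequences, and none are given.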

Additional observations from a re-analysis of the deposited data

Results flagged for a closer look

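A library stood apart from the other 3 of its group, by the gap to its neighbour as a share of the group's range, in 6 of 38 groups of 4 libraries tested, where chance flags about 1 in 20. SFRP2 had 0.398 CPM in the pregnant library of mare 1, the shallowest, with a gap of 0.871 of the range. The summed epithelial markers (2242 CPM; 0.881) were high and the endothelial markers (397 CPM; 0.853) low in the cyclic library of mare 2. The smooth muscle and pericyte sum was high in the cyclic library of mare 4 (483 CPM, gap 0.852). SFRP1, SFRP2, NKD1, LEF1 and AXIN2 also had their highest cyclic values in that library. The stromal sum was high in the pregnant library of mare 1 (4524 CPM; 0.869), and the ciliated cell sum was low in the pregnant library of mare 4 (124 CPM; 0.878). For the genes that changed, the values of no library were flagged. NKD1 came just short of a flag in the cyclic library of mare 4, with 118 CPM against 79.9 CPM in the next highest cyclic library.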

How the results depend on the processing

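The number of listed genes called was 5 and ran from 4 to 7 over 14 of the 15 alternatives, with DKK3 and SFRP1 among them each time. Without the mare as replicate block it was 2, with 389 genes called in place of 2565 and 4 other pathway genes in place of 17, and the cause was not tested. Leaving out each mare in turn gave 1266 to 2057 genes and 9 to 17 pathway genes, both lowest without mare 1. With library totals in place of TMM, 1416 genes rose and 864 fell, against 1309 and 1256. Listed genes that differed between mares were 2, but 5 in the likelihood ratio test, 4 in DESeq2 and 1 to 3 without a mare, with 1103 to 2049 genes in place of 2435; leaving out a mare there was added after the data were seen. Log2 fold changes of the 9 tested listed genes kept their sign in all alternatives run. Without mare 2 the sign turned for 3 genes near 0: LRP5 (-0.098 to 0.034 without a mare), CTNNB1 (-0.036 to 0.085) and EPHB3 (-0.015 to 0.046). For the turns the cause was not tested. Depth limits SFRP2, SFRP4 and LGR5, with 4 to 33 reads per library, and DKK2, with 8 to 47. Nothing shows whether biopsies of a mare came from separate sites. With the mare as a block, p-values for the state set the difference within mares against its variation over these 4 mares.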

Other observations

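Among the pathway genes too low to be tested, TRABD2B, a membrane protease that cleaves Wnt ligands, was chosen after its values were seen. It had 0.590 ± 0.264 CPM in pregnancy and 0.220 ± 0.0842 CPM in the cycle (SD, n = 4), on 2 to 17 reads per library. SOST, KREMEN2 and RSPO4 had no reads in any of the 8 libraries.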
